A study of Mus musculus with 7 samples.

Results

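The genes of the eukaryotic translation initiation factors (symbols that begin with Eif) were compared between Lkb1 KO and Lkb1 WT mouse LSK cells. LSK cells are bone marrow cells sorted as negative for mature lineage markers and positive for c-Kit and Sca-1, and blood stem cells and their first progeny fall in this gate. Members were taken from the deposited table as genes whose probe sets carry a single symbol that begins with Eif, without the Eif2ak kinases and without Eif2s3y, and each gene was read from its brightest probe set over the 7 arrays. This gave 37 genes, read from 93 probe sets, of 12393 genes with a probe set of 1 symbol. All 37 passed the filter on dim probe sets, as did 8078 genes in all. Eif4a3, Eif3j1 and Eif3j2 were not members, because the probe sets that name them carry several symbols. Eif1, Eif2b3, Eif2s1, Eif3g and the scaffold gene Eif4g1 were not among the members either.

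The Lkb1 KO group had 4 samples (numbers 4 to 7) from Lkb1 L/L rosa26CreERT2 mice, in which tamoxifen activates a Cre recombinase expressed from the Rosa26 locus in all tissues and deletes the floxed Lkb1 gene (symbol Stk11). The Lkb1 WT group had 3 samples (numbers 5 to 7) from Lkb1 L/L mice, which carry the same floxed alleles and received tamoxifen but have no Cre. C57BL/Ka-CD45.2:Thy-1.1 mice were used for both groups, both had 5 days of tamoxifen, and cells were sorted 1 day later, with 15000 to 20000 cells in a sample, and roughly 10 ng of RNA was amplified before labelling. The ages of the mice are not given in the labels. Nor do they say that each sample is a separate animal, so the spread behind each p-value is that between samples and may be technical.

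Initiation is the step at which the small ribosomal subunit is brought to an mRNA and finds its start codon. The cap-binding protein eIF4E, the scaffold eIF4G and the helicase eIF4A form the eIF4F complex on the capped mRNA, eIF3 links it to the ribosome, eIF2 delivers the initiator tRNA, and eIF2B recharges eIF2 with GTP. The 4E-BP proteins hold eIF4E away from eIF4G until the kinase mTORC1 phosphorylates them, and Lkb1 restrains mTORC1 through its target AMPK. An RNA array sees none of these phosphorylations and reports RNA levels only.

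Values below are log2(signal + 16) after quantile normalization of the 7 arrays, differences are KO minus WT on that scale, and a gene was called higher or lower at an adjusted p under 0.05 (limma, Benjamini-Hochberg over 8078 genes). Before normalization the KO arrays were brighter, with trimmed mean signals of 362.5 to 428 in KO and 230.3 to 342.4 in WT, so all directions are relative to the other genes on the array. As deposited, the median of all tested genes was 0.34 higher in KO. The deposited signal of the targeted gene Stk11, at its brighter probe set, was 162.5, 123.4, 91.2 and 74.1 in KO 4 to 7, against 187.3, 115.2 and 99.3 in WT 5 to 7, with overlapping groups. After normalization it averaged 6.84 ± 0.33 in KO and 7.40 ± 0.24 in WT (SD, n = 4 and 3), a difference of -0.56 that was not called (limma adjusted p = 0.118). The dimmer Stk11 probe set pointed the other way, with a normalized difference of 0.71. Its deposited signals were low, at 38.3, 57.9, 28.5 and 5.9 in KO 4 to 7, against 3.4, 5.1 and 19.4 in WT 5 to 7, and overlapped. It is not known here whether either probe set lies in the deleted part. Among tested LSK markers, Kit was called lower, with a mean of 10.43 in KO and 10.85 in WT, Hlf was called lower with 10.03 in KO and 10.87 in WT, and Cd34 was at 11.27 in KO and 11.35 in WT. Flt3 was at 11.62 in KO and 11.90 in WT, and Meis1 at 11.13 in KO and 11.56 in WT, neither of them called. All 5 differences lay below 0, and their normalized signals summed to between 9859 and 10835 in KO and between 12620 and 13856 in WT, while Ly6a (Sca-1) had no probe set of its own here.

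Among the initiation factor genes the helicase gene Eif4a2 was called lower and the scanning factor gene Eif1ax higher in Lkb1 KO cells. The other 35 of 37 did not pass the threshold. The Eif1ax call was lost in each of the 7 fits without 1 sample, and its dimmer probe set was at -0.01. The call of 1 member lower compares with 2.87% of all tested genes called lower, and the call of 1 member higher with 2.48% called higher, so the number of members called was close to the background. The median difference of the 37 members was 0.08, against -0.01 over all tested genes, and 25 of the 37 differences lay above 0 (67.6%, against 47.9% of all genes). At an unadjusted p under 0.05, 8 members were higher and 1 lower, where the shares over all genes were 11.9% and 13.5%. KO values lay wholly above WT values for 9 members, or 24.3%, where 11.5% of all genes did so. They lay wholly below for Eif4a2, Eif4ebp1 and Eif5, where 12.7% of all genes did so. With the signals as deposited, where the whole KO distribution is brighter, 11 members were called higher and 0 lower.

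**Figure D1:**
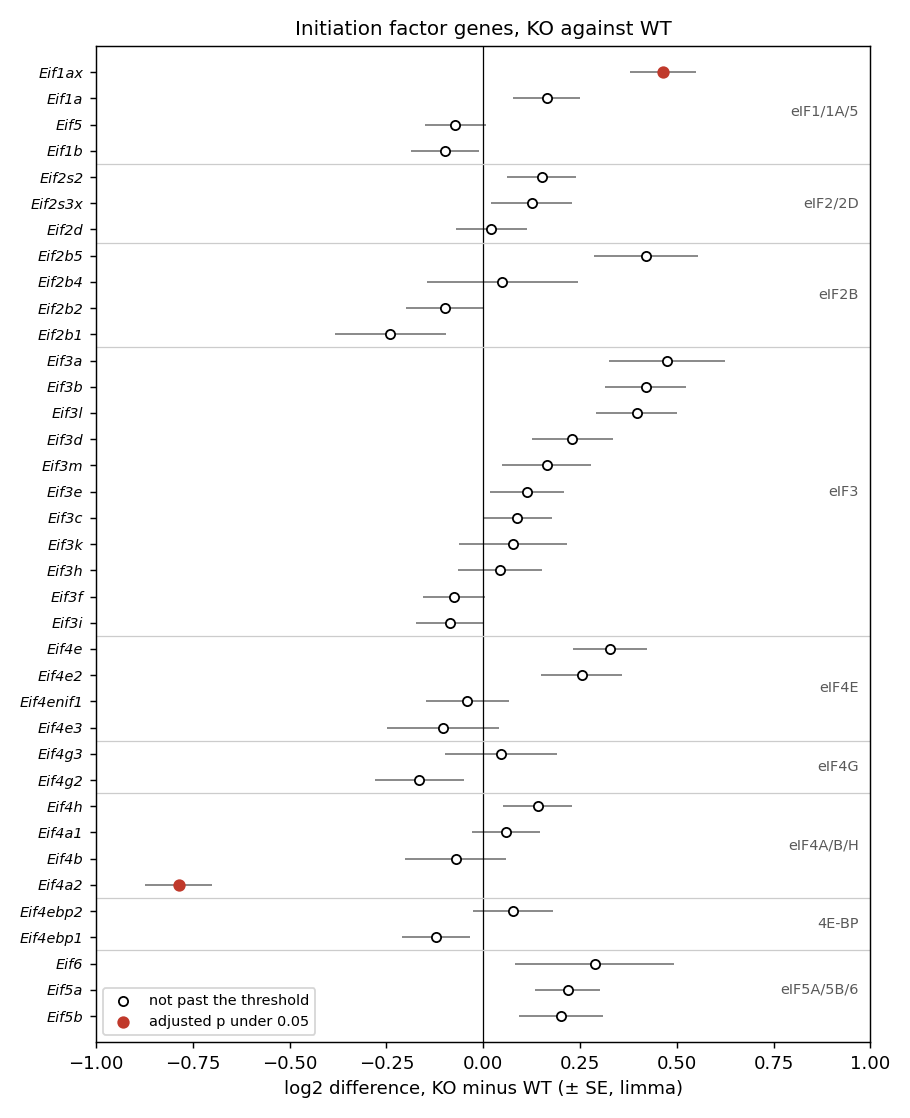
Log2 difference (KO minus WT, x axis, ± SE from limma) of each of the 37 initiation factor genes, grouped by role down the page, with filled points for adjusted p under 0.05. Eif4a2 stands alone at -0.79 and Eif1ax is the other filled point, at 0.47, while most eIF3 members lie to the right of 0.

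The eIF4A helicases unwind the mRNA ahead of the ribosome, and Eif4a1 and Eif4a2 encode closely related forms of the enzyme. Eif4a2 was at 8.36, 8.42, 8.31 and 8.30 in KO 4 to 7, against 9.23, 9.10 and 9.07 in WT 5 to 7. All 4 KO arrays lay below all 3 WT arrays, with a gap far wider than the spread within either group. The mean was 8.35 ± 0.05 in KO and 9.13 ± 0.09 in WT (SD, n = 4 and 3), a difference of -0.79 ± 0.09 (SE, limma adjusted p = 0.0106), or 42.0% lower on this scale. By p-value Eif4a2 ranked 10 among the 8078 genes, and 105 by the size of its fall. It passed the threshold in all 7 fits without 1 sample, where its difference ran from -0.82 to -0.74. In the deposited signals, with no scaling between arrays, it was 389.5, 370.2, 312.1 and 310.3 in KO and 579.7, 470.8 and 338.8 in WT. There the groups overlapped through WT 7, the dimmest array, and the difference of -0.38 was not called (limma adjusted p = 0.197). Eif4a2 had 1 probe set, so no second reading on the array bears on it. In bulk RNA, fewer cells of a type that express a gene and less RNA per cell cannot be told apart.

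Eif4a1 did not pass the threshold and was at 12.11, 11.98, 12.12 and 12.18 in KO 4 to 7, against 11.98, 12.07 and 12.06 in WT 5 to 7. The groups overlapped, and the difference was 0.06 (95% interval -0.14 to 0.26, limma adjusted p = 0.711). In this fit, with the spread between these samples, the interval did not reach a fall of the size seen in Eif4a2. The 2 dimmer probe sets of Eif4a1 were at 0.22 and 0.38, and neither was called. To compare the changes of both genes directly, the log2 ratio of Eif4a1 to Eif4a2 was taken within each array and set to 0 at the WT mean. It was 0.84, 0.66, 0.90 and 0.98 in KO 4 to 7, against -0.15, 0.06 and 0.09 in WT 5 to 7. Every KO array lay above every WT array, with a difference of 0.85 (exact permutation p = 0.0286, two-sided, the smallest that 35 splits allow, and adjusted p = 0.0571 over the 2 paralog pairs compared). Brightness of the whole array largely cancels in this ratio, and in the deposited scaling the difference was 0.78, with the same permutation p = 0.0286.

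**Figure D2:**
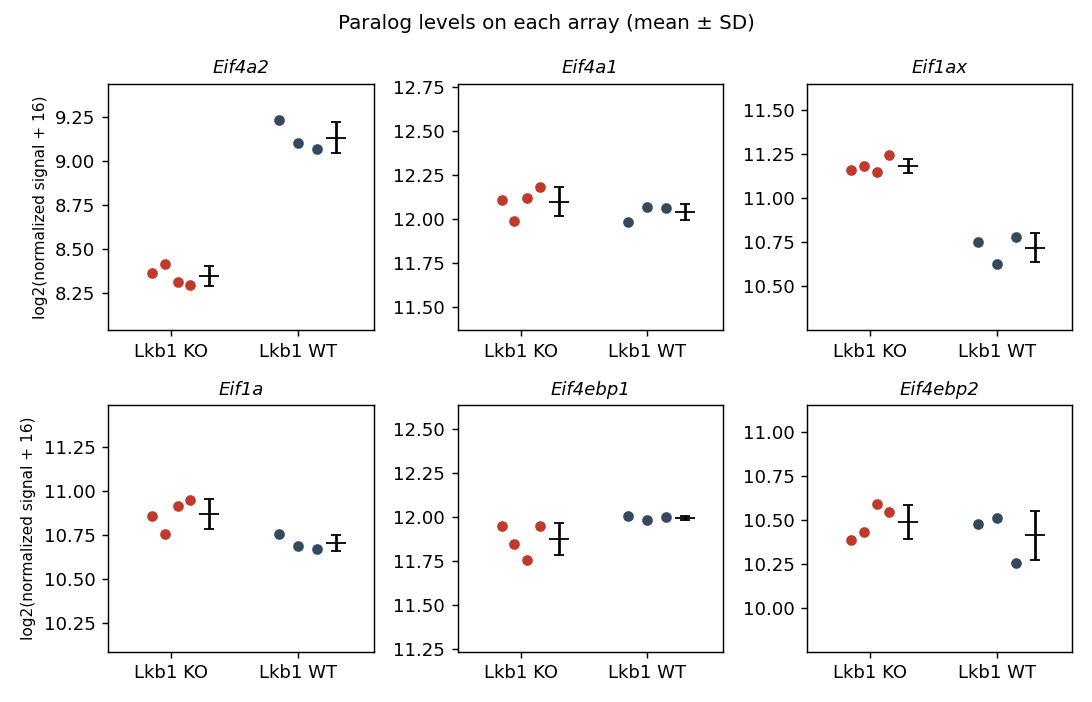
Level on each array, as log2(normalized signal + 16), of the paralogs Eif4a2 and Eif4a1, Eif1ax and Eif1a, and Eif4ebp1 and Eif4ebp2, with Lkb1 KO left of Lkb1 WT, points for arrays and bars for mean ± SD (n = 4 and 3). All panels span the same range, in which Eif4a2 (8.35 in KO, 9.13 in WT) and Eif1ax separate the groups most.

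The promoters of these genes are shown because Eif4a2 and Eif1ax are the members called and Eif4a1 is the paralog that was not, as the 250 bases before the annotated start in RefSeq (GRCm38.p6). Capitals mark CACGTG, the E-box letters bound by MYC and related factors, the only motif searched and the same on both strands. The windows are chr16:23107218-23107467 on the plus strand for Eif4a2, chr11:69672424-69672673 on the minus strand for Eif4a1 and chrX:159371928-159372177 on the plus strand for Eif1ax.
Eif4a2: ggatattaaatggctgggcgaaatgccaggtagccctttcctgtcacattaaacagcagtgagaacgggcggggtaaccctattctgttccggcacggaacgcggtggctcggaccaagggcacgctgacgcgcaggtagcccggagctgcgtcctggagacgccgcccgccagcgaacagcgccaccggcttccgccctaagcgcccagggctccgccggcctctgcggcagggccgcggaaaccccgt
Eif4a1: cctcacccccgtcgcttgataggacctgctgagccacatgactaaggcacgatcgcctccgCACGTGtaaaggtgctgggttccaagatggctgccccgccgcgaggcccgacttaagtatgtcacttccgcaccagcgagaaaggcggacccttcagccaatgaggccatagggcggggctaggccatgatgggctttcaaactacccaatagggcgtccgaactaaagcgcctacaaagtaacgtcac
Eif1ax: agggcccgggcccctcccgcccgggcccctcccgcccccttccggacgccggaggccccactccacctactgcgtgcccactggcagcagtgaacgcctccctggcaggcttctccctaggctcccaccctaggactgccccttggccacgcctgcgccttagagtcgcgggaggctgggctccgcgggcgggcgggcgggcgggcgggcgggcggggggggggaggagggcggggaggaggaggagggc
The Eif4a1 window held the letters once, at position -189 from the start, and the windows of Eif4a2 and Eif1ax did not hold them. Over the 300 bases that RefSeq's table gives per start (50 of them after it), 10 of 41 windows of 29 members held CACGTG (24.4%), against 10.1% of 8574 windows of tested genes and 7.15% of all windows. Counted by gene this was 8 of 29 members (27.6%) and 12.1% of tested genes. Of the 10 windows, 3 belong to alternative starts of Eif5a that lie close together. The letters are a description of these windows, and binding was not measured.

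Of the other eIF4A partners, Eif4b and Eif4h encode cofactors that stimulate the helicase. Eif4b averaged 10.86 ± 0.10 in KO and 10.93 ± 0.25 in WT, and Eif4h 13.37 ± 0.09 in KO and 13.23 ± 0.06 in WT (SD, n = 4 and 3). Their differences of -0.07 and 0.14 did not pass (limma adjusted p = 0.776 and 0.364).

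Among the factors of scanning and start codon choice, Eif1ax, the X-linked gene of eIF1A, was the member that rose. It was at 11.16, 11.18, 11.15 and 11.24 in KO 4 to 7, against 10.75, 10.62 and 10.78 in WT 5 to 7. The KO arrays were tightly grouped and all lay above the WT arrays. The difference was 0.47 ± 0.09 (SE, limma adjusted p = 0.0257). The call was lost in each of the 7 fits without 1 sample, where the adjusted p ran from 0.0565 to 0.0744. The second, dimmer probe set of Eif1ax was at -0.01 (limma adjusted p = 0.967 over probe sets), and the mean of both gave 0.23 (limma adjusted p = 0.174). Of the 2 probe sets, the brighter one alone was higher in KO. Its autosomal paralog Eif1a was at 10.86, 10.76, 10.91 and 10.95 in KO, against 10.76, 10.69 and 10.67 in WT. These groups touched, and the difference of 0.16 did not pass (limma adjusted p = 0.286). Eif1b, a paralog of the start codon gatekeeper eIF1, was at -0.10, and Eif5, whose product prompts eIF2 to hydrolyse GTP, was at -0.07. Eif5 values did not overlap between groups, with 12.06 to 12.10 in KO and 12.12 to 12.19 in WT, but the difference was small (limma adjusted p = 0.602), and its 3 dimmer probe sets ran from -0.03 to 0.39.

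For eIF2, which carries the initiator tRNA, Eif2s2 (beta subunit) and Eif2s3x (gamma subunit) were measured. Eif2s2 was at 11.87, 12.03, 11.83 and 12.00 in KO, against 11.79, 11.76 and 11.79 in WT. All KO arrays were above all WT arrays by a narrow margin (0.15, limma adjusted p = 0.328), and 1 of its dimmer probe sets pointed the other way, at -0.36. Eif2s3x was at 0.13 and Eif2d, an alternative factor for tRNA delivery, at 0.02 (limma adjusted p = 0.489 and 0.906). A dimmer probe set of Eif2d was at 0.34, with all KO arrays above all WT arrays (limma adjusted p = 0.0962 over probe sets). Another was at 0.04, with overlapping groups. In the exchange factor eIF2B, the catalytic epsilon subunit gene Eif2b5 was at 8.81, 8.64, 8.30 and 8.45 in KO, against 8.26, 8.07 and 8.06 in WT. These groups did not overlap, and the difference of 0.42 ± 0.13 (SE) did not pass (limma adjusted p = 0.102). The genes of regulatory subunits, which sense phosphorylated eIF2, were at -0.24 for Eif2b1, -0.10 for Eif2b2 and 0.05 for Eif2b4, all with overlapping groups. Eif2b2 had 2 dimmer probe sets of opposite sign, at 0.21 and 0.26.

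The eIF3 complex, the largest factor and the bridge to the small ribosomal subunit, had 11 members on the array. Their median signal lay at percentile 93.0 of tested genes, so the shares over all genes below come from mostly dimmer genes. None passed the threshold. At an unadjusted p under 0.05, 3 of 11 were higher in KO (27.3%, against 11.9% of all tested genes), and 9 of 11 differences lay above 0 (81.8%, against 47.9%), with a median of 0.11 and a range from -0.09 to 0.47. Eif3b, a core scaffold subunit, was at 10.14, 10.01, 10.00 and 10.15 in KO, against 9.61, 9.52 and 9.83 in WT. Eif3l was at 11.84, 11.78, 11.59 and 11.63 in KO, against 11.43, 11.31 and 11.20 in WT. Eif3a, the largest subunit, was at 10.99, 11.29, 11.50 and 11.57 in KO, against 10.72, 10.92 and 10.95 in WT. For these genes the KO arrays all lay above the WT arrays, while Eif3a varied widely among KO arrays. Differences were 0.42 for Eif3b, 0.40 for Eif3l and 0.47 for Eif3a (limma adjusted p = 0.0572, 0.0628 and 0.0979). Eif3b and Eif3l each passed under 5 of 13 other processing choices and Eif3a under 2, but in none of the 7 fits without 1 sample. Those choices also raised the calls higher over all genes, from 200 to between 323 and 1304. Other probe sets of Eif3a were at 0.09, 0.40 and 0.82, and the dimmer probe set of Eif3l was at 0.04. Eif3d, whose product binds the cap of some mRNAs, also had separate groups, with 10.90 to 11.08 in KO and 10.58 to 10.88 in WT (0.23, limma adjusted p = 0.212). The remaining subunits Eif3c, Eif3e, Eif3f, Eif3h, Eif3i, Eif3k and Eif3m had overlapping groups and differences between -0.09 and 0.16.

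**Figure D3:**
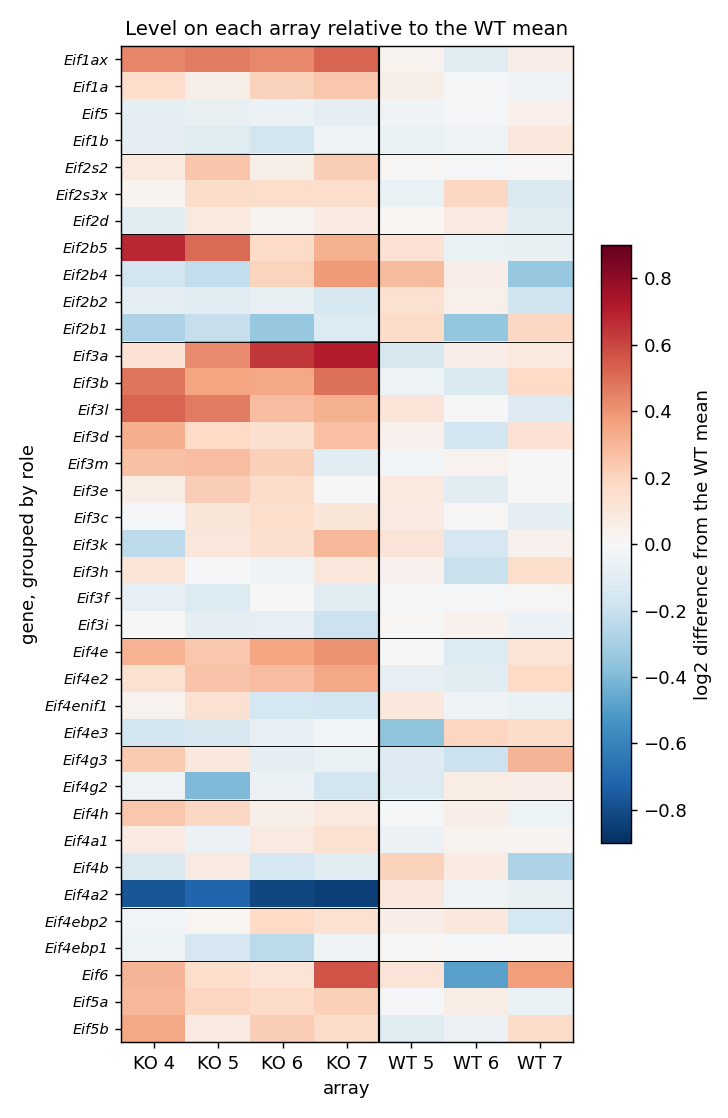
Level of each of the 37 genes (rows, grouped by role) on each array (columns, Lkb1 KO left of Lkb1 WT) as the log2 difference from the WT mean of that gene. The 4 KO columns are uniformly low for Eif4a2 and high for Eif1ax, Eif3b and Eif3l, while Eif2b5 and Eif3a vary from one KO array to the next.

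Of the genes for cap binding, Eif4e itself was at 10.00, 9.93, 10.04 and 10.10 in KO, against 9.70, 9.56 and 9.81 in WT. Every KO array was above every WT array. The difference of 0.33 ± 0.10 (SE, 95% interval 0.11 to 0.55) did not pass over all genes (limma adjusted p = 0.0796). Eif4e passed under 4 of 13 other processing choices, each of which also called more genes higher over all tested genes. Its 3 probe sets gave 0.33, 0.49 and 0.28, all higher in KO and none called. Eif4e2, which encodes a cap-binding relative that represses translation, was at 0.25 (limma adjusted p = 0.176), and Eif4e3 was at -0.10 and the eIF4E transporter gene Eif4enif1 at -0.04. Dimmer probe sets of Eif4e2 above the filter were at 0.53, with all KO arrays above all WT arrays, and at 0.14, with overlapping groups. A dimmer probe set of Eif4e3 was at -0.27, with all KO arrays below all WT arrays. None of these probe sets was called. For the scaffolds, Eif4g2, which encodes a form that lacks the eIF4E-binding part, averaged 13.30 ± 0.16 in KO and 13.46 ± 0.11 in WT, and Eif4g3 averaged 8.66 ± 0.15 in KO and 8.61 ± 0.27 in WT (SD, n = 4 and 3; limma adjusted p = 0.406 and 0.871).

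The 4E-BP repressors did not pass in either direction. Eif4ebp1 was at 11.95, 11.85, 11.76 and 11.95 in KO, against 12.01, 11.98 and 12.00 in WT. The KO arrays lay just below the WT arrays, and the difference was -0.12 (95% interval -0.32 to 0.08, limma adjusted p = 0.422). Its 2 dimmer probe sets had the opposite sign, at 0.08 and 0.19. Eif4ebp2 was at 10.39, 10.43, 10.59 and 10.55 in KO, against 10.48, 10.51 and 10.26 in WT. These overlapped, with a difference of 0.08 (95% interval -0.16 to 0.31, limma adjusted p = 0.681). The change of Eif4ebp1 minus that of Eif4ebp2, taken within arrays, was -0.20, with overlapping groups (exact permutation p = 0.171, two-sided, adjusted p = 0.171 over the 2 pairs). Eif4ebp3 was not analysed here.

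For the late steps, Eif5b (subunit joining) was at 0.20, Eif6 (which keeps the large subunit from joining too early) at 0.29 and Eif5a at 0.22 (limma adjusted p = 0.287, 0.416 and 0.156). Eif5a, which despite its name acts mainly in elongation and termination and needs the hypusine modification, was at 12.74, 12.63, 12.61 and 12.66 in KO, against 12.43, 12.51 and 12.38 in WT. The groups were separate, by less than those of Eif1ax. Eif6 ran from 10.10 to 10.54 in KO and from 9.49 to 10.35 in WT, the widest WT spread among the 37 genes.

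Several probe sets above the filter were available for 24 of the 37 genes. For 13 of these genes every such probe set had the same sign, and for 11 the signs differed. Fitted one by one, 83 probe sets of the members gave 1 call higher and 1 lower among 12448 probe sets, the same Eif1ax and Eif4a2 readings. Of the brightest probe sets, 5 carry the suffix that Affymetrix gives to sets that may cross-hybridize with other transcripts (Eif2b2, Eif3c, Eif3e, Eif4ebp1 and Eif4h), so their values are less certain. Another 4, of Eif1a, Eif3m, Eif4g2 and Eif5a, carry the suffix for sets that match several transcripts.

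**Figure D4:**
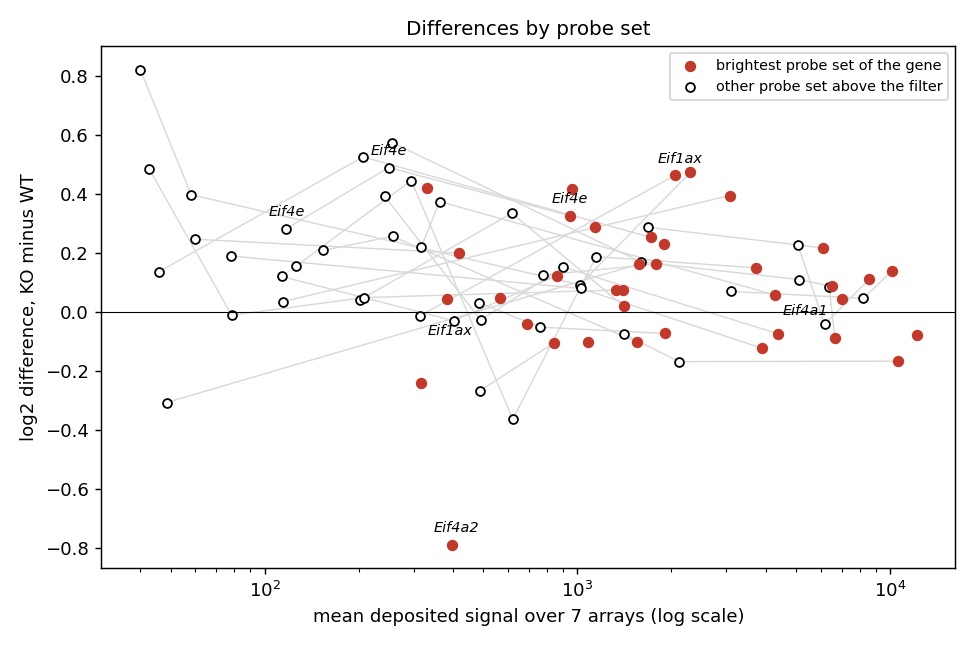
Log2 difference (KO minus WT, y axis) of each of the 83 probe sets above the filter against its mean deposited signal (x axis, log scale), with grey lines joining probe sets of the same gene. Eif4a2 lies apart at -0.79, the bright and dim probe sets of Eif1ax differ (0.47 and -0.01), and the 3 of Eif4e lie together.

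Of 53 tested genes in the other translation lists, 1 was called higher and 1 lower, near the 2.48% and 2.87% of all tested genes. Differences lay above 0 for 64.2% of them, against 47.9% of all tested genes, with a median of 0.09 against -0.01. KO values lay wholly above WT values for 17.0%, against 11.5% of all tested genes. The median signal of these genes lay at percentile 66.4 of tested genes. Among 28 tested regulators of initiation (of 34 listed), 1 fell and none rose, with a median of 0.09. It was Eif2ak3 (PERK), the endoplasmic reticulum kinase that phosphorylates eIF2, at 7.37 ± 0.05 in KO and 7.73 ± 0.03 in WT (SD, n = 4 and 3; -0.36, limma adjusted p = 0.0424). This call was lost in all 7 fits without 1 sample (adjusted p from 0.0827 to 0.0985), and in the deposited scaling the difference was -0.0038. The eIF2 phosphatase subunit gene Ppp1r15a was at -0.46, the ribosome recycling gene Abce1 at 0.35 and the mRNA-binding gene Ybx1 at 0.44 (limma adjusted p = 0.0603, 0.0764 and 0.0917). Of 12 elongation and termination genes (of 15), the release factor gene Gspt1 (eRF3a) rose, at 8.56 ± 0.13 in KO and 8.04 ± 0.17 in WT (SD, n = 4 and 3; 0.51, limma adjusted p = 0.0472), and none fell. Gspt1 did not pass in any of the 7 fits without 1 sample. In that list Eef1b2 was at -0.20, Pelo at 0.28 and Dph5 at 0.16, and the median was 0.10. None of 8 polyamine and hypusine genes (of 10) passed, with Srm (spermidine synthase) at 0.53, Dohh (the last enzyme of eIF5A hypusination) at 0.35, Azin1 at 0.27, Sat1 at -0.18 and a median of 0.03. None of 5 mitochondrial translation factors (of 9) passed, with Gfm1 at 0.37, Mrrf at 0.16, Gfm2 at 0.11, Mtif2 at -0.17 and a median of 0.11.

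Other gene groups moved with genotype on the same arrays. Among 18 tested S phase genes 8 rose and none fell, with a median of 0.42 and a summed normalized signal of 46604 to 49920 in KO and 36456 to 38256 in WT. Of 13 mature myeloid markers, 10 fell and none passed as higher, although Csf1r (0.75) and Itgam (0.40) lay higher in KO with no overlap between groups (limma adjusted p = 0.0844 and 0.0661). These 13 summed to between 13625 and 19860 in KO and between 34459 and 46987 in WT. Signals of 8 erythroid markers summed to between 3523 and 4614 in KO and between 4972 and 6601 in WT, with 2 genes lower (Ermap and Slc4a1) and Hba-a2 higher. Of 12 lymphoid markers only Cd79b and Nkg7 passed the filter, and the B cell genes Cd79a, Pax5 and Ebf1 and the T cell genes Cd3e, Cd3g, Cd4 and Cd8a lay below it. Nkg7 was called higher, with a mean of 11.56 in KO and 10.98 in WT (limma adjusted p = 0.0240). Cd79b was at -0.12, with overlapping groups. Signals of these 2 genes summed to between 3058 and 3545 in KO and between 2329 and 2443 in WT. The Actb control probe sets gave a 3' to 5' signal ratio, which rises as cDNA gets shorter, of 11.41 to 12.29 in KO and 12.60 to 13.11 in WT. The ratio did not overlap between the groups, so its part and that of genotype cannot be told apart. With that ratio as a covariate Eif4a2 was at -0.73 and Eif1ax at 0.49, and neither passed (limma adjusted p = 0.485 and 0.533). Over all tested genes that fit called 0 higher and 1 lower. The part of cell composition or cycling in these differences was not tested.

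**Figure D5:**
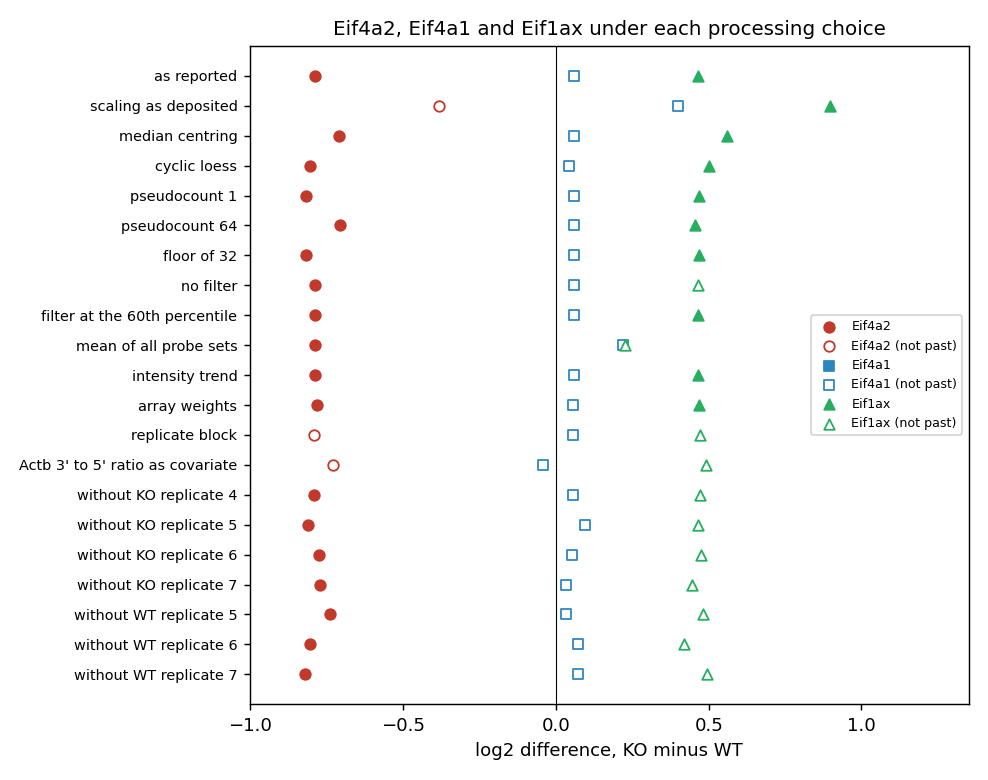
Log2 difference (KO minus WT, x axis) of Eif4a2, Eif4a1 and Eif1ax under each processing choice and without each sample (rows), with filled symbols for adjusted p under 0.05. Eif4a2 stays below 0 in every row, from -0.82 to -0.38, and Eif1ax passes in none of the 7 rows without 1 sample.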

How the data were processed

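RNA of 7 LSK samples was measured on 1 Affymetrix array each. The authors deposited 1 linear signal intensity per probe set and array (22690 probe sets, 64 of them controls), made with MAS5 per the submitters' processing notes. The sources used here give no MAS5 version, settings or scaling. Genes were named from the platform annotation (20380 probe sets had 1 symbol, 691 several), and all 37 members matched RefSeq's mouse table (GRCm38.p6). Signals were quantile-normalized over non-control probe sets and analysed as log2(signal + 16), which understates changes of dim genes. Each gene was read from its brightest probe set by mean deposited signal, and genes above the 40th percentile of probe sets (a signal of 32.04) were tested.

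Differences between KO and WT came from limma (version 3.58.1, R 4.3.3) with moderated variances on 5 residual degrees of freedom. P-values were adjusted by Benjamini-Hochberg across 8078 genes, and 0.05 was the threshold. For paralog pairs, the 35 splits of the arrays gave exact two-sided permutation p-values. Pairs with Eif4a3 or Eif4ebp3 were planned and could not be formed. The number of arrays limits precision. The limma step was tested on simulated data. Members and lists were chosen with earlier results of these data known. The rule for named genes took members past the threshold, the Eif4a and Eif4ebp paralogs, the member of lowest p in each role and up to 4 genes of lowest p in each other list; further members were described after their values were seen. Alternatives covered scaling, pseudocount (1, 64 or a floor of 32), filter (none or the 60th percentile), probe sets, variance model, array weights, replicate number, the Actb 3' to 5' ratio and leaving out each sample. Same-numbered KO and WT samples did not deviate together (correlations 0.023, 0.091 and 0.054), so the numbers were not taken as pairs.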

Additional observations from a re-analysis of the deposited data

Results flagged for a closer look

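Of the 37 genes, 2 had 1 KO array far from the other 3 KO arrays, and chance gives such a gap in about 1 of 20 groups. Eif2s3x was at 9.72 in KO 4, with the other KO arrays all at 9.85 after rounding and a gap that took 0.954 of the group's range. Eif3m, an eIF3 subunit gene, was at 10.41 in KO 7, with the other KO arrays at 10.73 to 10.79 and a gap of 0.841 of the range. Neither gene was called in the comparison with WT.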

How the results depend on the processing

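Eif4a2 stayed lower in KO under all 20 alternatives and passed in 17 of them. The filter settings, the mean of all probe sets (it has 1) and the intensity trend could not change its difference, only its p-value. The call ended with the deposited scaling (-0.38, limma adjusted p = 0.197), the replicate block (-0.79, adjusted p = 0.0914) and the Actb covariate (-0.73, adjusted p = 0.485). Eif1ax passed in 9 of 13 alternatives that kept all samples, and not without the filter, with the mean of all probe sets, the block or the covariate. Members called higher (1) numbered 11 with the deposited scaling, 4 with median centring, 3 with a pseudocount of 64, 4 with the filter at the 60th percentile and 6 with an intensity trend. They numbered 0 without a filter, with the mean of all probe sets, the block or the covariate, and 0 without any 1 sample. Members called lower (1) numbered 0 with the deposited scaling, the block and the covariate. The members' median (0.08) was 0.45 with the deposited scaling, 0.13 with median centring, 0.11 with the mean of probe sets, 0.12 with the block and 0.070 to 0.13 without 1 sample. Both paralog differences kept their direction in every alternative run, though the filter settings could not change them. Other translation genes called higher (1) numbered 15 with the deposited scaling, 4 with median centring, 2 at the 60th percentile and 6 with the trend, and 0 with cyclic loess, a pseudocount of 1, no filter, the mean of probe sets, array weights, the block, the covariate or any sample left out. Those called lower (1) numbered 2 at the 60th percentile, and 0 with the deposited scaling, median centring, no filter, array weights, the block, the covariate or any sample left out. Over all genes, calls higher (200) numbered 1304 with the deposited scaling, 379 with median centring, 323 with a pseudocount of 64, 28 without a filter, 362 at the 60th percentile, 447 with the trend, 0 with the block or covariate, and 7 to 75 without 1 sample. Calls lower (232) numbered 42, 367, 47, 351 and 444 with the deposited scaling, pseudocount of 64, no filter, 60th percentile and trend, 1 with the block or covariate, and 29 to 115 without 1 sample. The block leaves out KO 4, whose number no WT sample shares, and same-numbered samples did not deviate together. Among dimmer probe sets read on their own (chosen after seeing the data), the sign turned for Eif1ax (-0.011), Eif2b2 (0.21, 0.26), Eif2s2 (-0.36), Eif2s3x (-0.028), Eif3e (-0.040), Eif3i (0.088), Eif3m (-0.31), Eif4b (0.033), Eif4ebp1 (0.081, 0.19), Eif4ebp2 (-0.0092) and Eif5 (0.39, 0.15). With the deposited scaling, the sign turned for Eif1b (0.34), Eif2b1 (0.16), Eif2b2 (0.34), Eif3f (0.076), Eif3i (0.23), Eif4b (0.36), Eif4e3 (0.33), Eif4ebp1 (0.23), Eif4enif1 (0.39), Eif4g2 (0.028), Eif5 (0.27), Eef1b2 (0.096), Sat1 (0.13) and Mtif2 (0.15). With median centring, the sign turned for Eif1b (0.0011), Eif2b2 (0.0028), Eif4b (0.022), Eif4enif1 (0.059) and Eif4h (-0.0053). With the mean of all probe sets, the sign turned for Eif2b2 (0.12), Eif3i (0.00069), Eif3m (-0.071), Eif4ebp1 (0.050), Eif5 (0.11), Dph5 (-0.084) and Gfm2 (-0.18). With the Actb ratio as a covariate, the sign turned for Eif4a1 (-0.042), Eif4b (0.00084), Eif4g3 (-0.048), Sat1 (0.13) and Mtif2 (0.35). With the replicate number as a block, the sign turned for Eif4g3 (-0.017). Without 1 sample the sign turned within these ranges: Eif2b4 (-0.12 to 0.19), Eif2d (-0.028 to 0.061), Eif3h (-0.056 to 0.12), Eif3k (-0.00025 to 0.18), Eif4b (-0.21 to 0.032), Eif4ebp2 (-0.0031 to 0.12), Eif4enif1 (-0.10 to 0.0060), Eif4g3 (-0.049 to 0.20). The cause of these changes was not tested.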
